A study of Mus musculus with 8 samples.

Results

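Fibroblast nuclei of the brain's coverings and vessels made up 475 of the 48468 nuclei that passed quality limits, 0.980%. They were chosen by a gate on marker genes: at least 2 of Col1a1, Col1a2, Col3a1, Dcn, Lum, Slc6a13 and Ranbp3l detected, with at least 3 unique molecular identifiers (UMIs, each 1 captured RNA molecule) in their sum. Nuclei with more than 5 UMIs of Cldn5, Flt1 and Ttr together, more than 1 UMI of Rbfox3, Snap25 and Syt1 together, or any UMI of Mog, Aqp4 or Cx3cr1 were left out. All 16 of these genes chose the nuclei, so their levels are described below and never tested. The study sequenced single-nucleus RNA from a cube of forebrain beside the lesion, frozen after dissection, in male Swiss Webster mice aged 10 weeks. Its 4 groups, of 2 libraries each, had control surgery, BCAS surgery, TBI surgery (traumatic brain injury) or both surgeries (BCAS+TBI). The labels give BCAS only as an abbreviation, which the title ties to cerebral hypoperfusion, do not say what the control surgery was, and give no time between surgery and collection. They call the 2 libraries of a group biological replicates but do not say how many mice each holds, and the p-values below measure the spread between such libraries.

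Fibroblasts of the brain lie in the pia, arachnoid and dura and along larger vessels, where they lay down fibrillar collagens and basement membrane. They also carry transporters for organic anions, amino acids and osmolytes, and make retinoic acid and bone morphogenetic proteins. After injury of the brain or spinal cord, fibroblasts are known to enter the lesion and add to its scar.

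The 8 libraries gave 33 to 99 such nuclei each: 70 and 99 in control, 45 and 33 in BCAS, 60 and 64 in TBI, and 48 and 56 in BCAS+TBI. Together they held 855951 UMIs, and their median depth per library was 1386.5 to 1908 UMIs. The libraries fell into 2 sets by total UMIs, which the labels do not explain: set 1 (control 1, BCAS 1, TBI 1 and BCAS+TBI 2) held 28118725 to 33363564 UMIs per library and set 2 (the other 4) held 42651388 to 56135192. Each group has 1 library in each set. Ribosomal protein genes took 0.543% to 0.701% of the UMIs of the gated nuclei in set 1 and 0.198% to 0.312% in set 2. No barcode was shared between the gated nuclei of any of the 28 pairs of libraries. At the edge of the gate, 57 nuclei held exactly 3 UMIs of the gate genes, and 55 otherwise eligible nuclei just outside held 2 UMIs in 2 genes. Of 959 nuclei that met the fibroblast conditions, 484 were removed by the exclusion genes, 394 of them for the neuron genes among others.

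The 5 fibroblast markers Col1a2, Dcn, Slc6a13, Ranbp3l and Lum summed to 4429 CPM (UMIs of a gene per 1000000 UMIs) in the gated nuclei and to 27.4 CPM in all other kept barcodes. Summed markers of other classes, as a percentage of their level in the other barcodes, ran from 8.65% for excitatory and 17.3% for inhibitory neurons over 24.7% for oligodendrocyte precursors, 42.7% for oligodendrocytes, 58.0% for astrocytes, 61.1% for microglia, 75.9% for choroid plexus epithelium and 87.2% for ensheathing or Schwann cells. They stood at 117% for endothelial cells, 121% for red blood cells and 258% for ependymal cells (113 against 44.0 CPM, with 4 of 7 markers higher). Of the defining markers, Foxj1 and Dnah12 (ependymal cells), Folr1 (choroid plexus epithelium), Abcc9 (pericytes) and Foxd3 (ensheathing and Schwann cells) were at 0 UMIs, while 4 of 9 choroid plexus markers were higher than in the other barcodes. Of 10 mural markers, 7 were higher than in the other barcodes, and the summed mural level was 1217 CPM against 131. Most of it came from Vtn at 659 CPM and Atp13a5 at 319 CPM. All 5 border macrophage markers were above the other barcodes, with a sum of 225 CPM in TBI 1, 207 in BCAS+TBI 1 and at most 21.8 in the other 6 libraries. Oligodendrocyte precursor markers were lowest in the BCAS+TBI libraries, at 183 and 76.2 CPM, and ran from 260 to 881 CPM in the other 6. The part of these other-cell RNAs in the results below was not tested except where a value is given.

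Transporters of the leptomeninges led the genes that set these nuclei apart. Among genes with at least 50 UMIs, the 30 with the highest ratio of CPM in the gated nuclei to CPM in all other barcodes included 25 with a gene name, of which 5 belong to the gate. Slc6a13, a GABA and taurine carrier used by the gate, stood at 793 CPM against 2.38, a ratio of 333. Slc22a6, an organic anion transporter, followed at 276 CPM against 0.837, a ratio of 329. At least 1 Slc22a6 UMI was present in 33.5% of gated nuclei and 0.388% of other barcodes. Slc6a12 (betaine and GABA) at 118 CPM, Slc22a2 (organic cations) at 114, Slc6a20a (proline and imino acids) at 1443, Slc13a4 (sulfate) at 486 and Slc13a3 (dicarboxylates) at 555 completed the carriers. Of 37 carriers in the transporter list, 32 were higher in the gated nuclei, and 14 of the 25 that were tested between groups were more than 10-fold higher. Of all 2830 genes tested, 2168 were at least as high as in the other barcodes and 232 more than 10-fold higher.

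Enzymes, matrix and transcription factors made up most of the rest. Aldh1a2, which makes retinoic acid, stood at 404 CPM against 1.51, a ratio of 267. In the 8 libraries it ran from 272 to 518 CPM, so no library lacked it. Fmod, a collagen-binding proteoglycan, had a ratio of 220, and the basement membrane chains Col4a6 and Lama1 had ratios of 161 and 132. Tbx18, a T-box factor of mesenchyme, had a ratio of 177, and the listed factors Foxc2, Foxd1 and Osr1 had ratios of 123, 110 and 98.3. Bmp6, a bone morphogenetic protein, was present in 77.1% of gated nuclei at a ratio of 96.0. These ratios describe the nuclei the gate chose and carry no test.

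**Figure D1:**
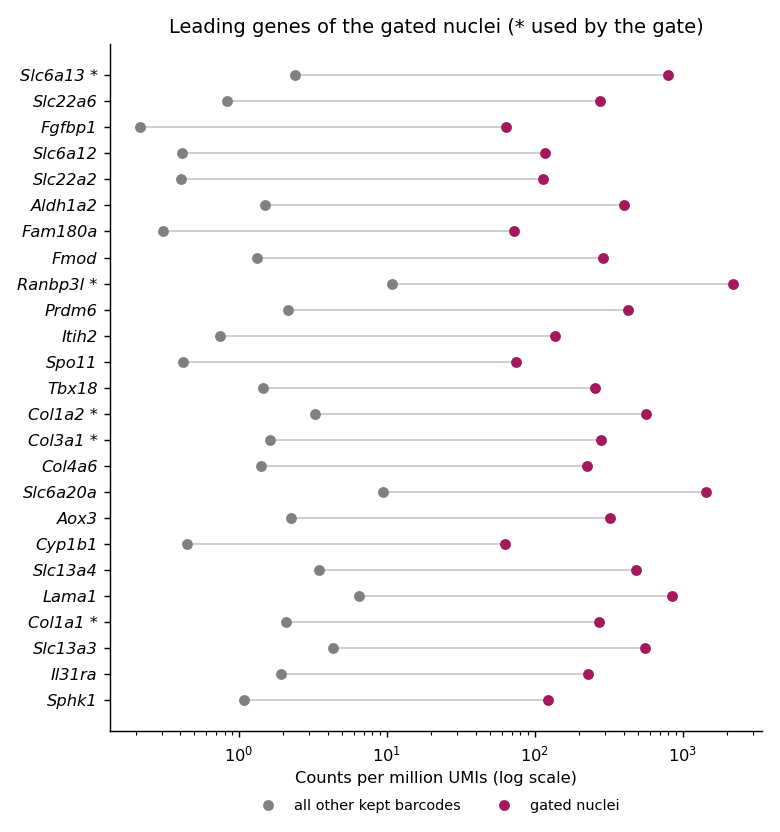
Level of the 25 named leading genes in the gated nuclei (dark points) and in all other kept barcodes (grey points), in CPM on a log axis. Every gene lies more than 100-fold higher in the gated nuclei, from Slc6a13 at 333-fold to Sphk1 at 112-fold; asterisks mark genes the gate used.

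Promoter windows are shown for 3 of these leading genes and for Cyr61, a relative of Ctgf described below. They were picked after the search from windows that hold the letters searched for, and the window of the collagen Col1a2, ranked just above Col3a1, holds none. The windows are RefSeq sequences on GRCm38.p6, from 250 bases before to 50 bases after each start, read 5′ to 3′ on the gene's strand. Capitals mark the letters CATTCC or its reverse complement GGAATG, the core bound by TEAD factors. Slc6a13 lies at chr6:121300038-121300337 on the plus strand, Slc22a6 at chr19:8617746-8618045 on the plus strand, Col3a1 at chr1:45311288-45311587 on the plus strand and Cyr61 at chr3:145649936-145650235 on the minus strand.
Slc6a13: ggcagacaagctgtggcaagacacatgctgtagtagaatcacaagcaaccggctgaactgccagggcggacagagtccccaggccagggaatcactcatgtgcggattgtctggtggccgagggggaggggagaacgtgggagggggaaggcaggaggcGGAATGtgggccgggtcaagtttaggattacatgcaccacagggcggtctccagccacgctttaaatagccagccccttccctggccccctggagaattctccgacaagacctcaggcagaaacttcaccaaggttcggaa
Slc22a6: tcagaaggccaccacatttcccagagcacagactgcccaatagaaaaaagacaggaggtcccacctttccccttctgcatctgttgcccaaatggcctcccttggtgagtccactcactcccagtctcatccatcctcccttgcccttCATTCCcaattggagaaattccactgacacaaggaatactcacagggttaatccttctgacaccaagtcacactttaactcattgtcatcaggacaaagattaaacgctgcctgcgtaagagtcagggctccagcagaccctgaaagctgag
Col3a1: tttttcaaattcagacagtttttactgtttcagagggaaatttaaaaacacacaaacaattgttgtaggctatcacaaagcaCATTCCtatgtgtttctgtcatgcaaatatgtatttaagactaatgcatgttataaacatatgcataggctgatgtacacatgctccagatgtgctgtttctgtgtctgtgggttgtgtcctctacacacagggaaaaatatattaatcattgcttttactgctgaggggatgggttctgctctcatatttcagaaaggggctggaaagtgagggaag
Cyr61: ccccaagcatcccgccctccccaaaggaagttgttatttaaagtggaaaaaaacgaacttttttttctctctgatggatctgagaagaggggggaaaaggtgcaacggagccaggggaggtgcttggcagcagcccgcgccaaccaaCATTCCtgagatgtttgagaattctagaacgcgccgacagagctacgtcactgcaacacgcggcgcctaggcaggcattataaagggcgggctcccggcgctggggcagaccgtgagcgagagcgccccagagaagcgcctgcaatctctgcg
Of the 25 named leading genes 21 had a RefSeq window, and 8 of the 21 held these letters on either strand: Slc6a13, Slc22a6, Slc22a2, Itih2, Col3a1, Col4a6, Slc13a4 and Sphk1. Over all 27025 windows of the same length the share was 14.6%. The forkhead core GTAAACA was in 0 of the 21 windows and 3.55% of all, and the T-box letters AGGTGTGA were in 0 of the 21 and 1.27% of all, each on both strands. A match describes the letters in the window and is no measured site.

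The 475 nuclei split into 4 subgroups of 255, 70, 120 and 30 nuclei on clustering, and these are described by their genes without a name. Since the same nuclei chose both, none of the levels below is tested. Subgroup 1 was led by Il31ra, a cytokine receptor at 416 CPM, by Asic2 and by the secreted factors Ndnf and Igfbp2 at 259 and 487 CPM, and it held the complement gene C4b at 194 CPM. Only 40.8% of its nuclei stayed in 1 cluster at resolution 0.6, and it held 13 of the 14 nuclei with more than 2 UMIs of precursor genes and all 5 nuclei with a high doublet score. Subgroup 2 had the highest Dcn (decorin), at 2686 CPM against 130 to 693 in the others, and led in the matrix genes Itih5 at 3061, Eln (elastin) at 457, Bgn (biglycan) at 393 and Postn (periostin) at 274 CPM. The basement membrane genes Lama1, Col4a5, Col4a6, Nid1, Lamc3 and Hspg2 were also highest there, with Lama1 at 2275 CPM and Col4a5 at 1243.

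Subgroup 3 was marked by Nnat, an imprinted gene for a small membrane protein, at 6431 CPM in 93.3% of its nuclei. Rspo2, an activator of WNT signalling, stood at 308 CPM there and at 14.5 or less elsewhere. Atp13a5, often read as a pericyte gene, was at 929 CPM in subgroup 3 and at 183 or less elsewhere. Other mural markers were not highest there. Pdgfrb was at 156, 247, 165 and 43.5 CPM in subgroups 1 to 4, and Vtn at 950, 886, 182 and 0. Of the 10 mural markers 7 were higher in the gated nuclei than in the other barcodes, and 1, Abcc9, was at 0 in every gated nucleus. The part of mural RNA in subgroup 3 was not tested. All nuclei of subgroup 3 stayed together at resolution 0.6 and 70% at resolution 1. In subgroup 4 the collagen Col25a1 reached 4383 CPM, the bicarbonate carrier Slc4a10 5123, the organic cation extruder Slc47a1 1364 and the sulfate carrier Slc26a2 856. The same 30 nuclei had 0 UMIs of Slc6a13, Slc6a20a, Slc7a11, Slc22a8, Lama1 and Vtn among 68900 UMIs, which allows up to 43.5 CPM for each by counting error alone. Bnc2 and Tbx15, transcription factors of mesenchyme, stood at 4833 and 1176 CPM in subgroup 4. Every library held nuclei of subgroups 1 to 3, and BCAS 2 held none of subgroup 4, whose other libraries held 1 to 7. Subgroup 1 made up 36 of 70 and 45 of 99 nuclei in control and 26 of 45 and 27 of 33 in BCAS. It made up 29 of 60 and 36 of 64 in TBI, and 30 of 48 and 26 of 56 in BCAS+TBI. Subgroup 3 had 19 and 32 nuclei in control, 9 and 4 in BCAS, 19 and 14 in TBI, and 5 and 18 in BCAS+TBI. The part of these numbers in the group levels below was not tested.

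**Figure D2:**
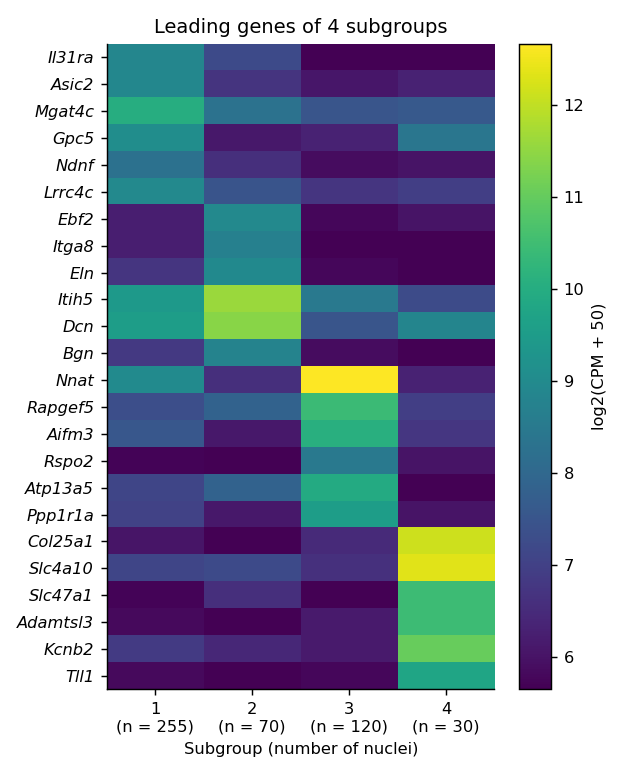
Level of 6 of the leading genes of each subgroup (rows) in the 4 subgroups (columns, with their numbers of nuclei), as log2(CPM + 50) in colour. Col25a1 and Slc4a10 are bright only in subgroup 4, Nnat is brightest in subgroup 3, and Itih5 and Dcn are brightest in subgroup 2.

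The share of fibroblast nuclei was highest in the control libraries, and no difference between groups passed a test. It was 1.22% and 1.67% of kept barcodes in control, 0.818% and 0.483% in BCAS, 1.12% and 0.841% in TBI, and 0.797% and 1.02% in BCAS+TBI. The control mean was 1.45% ± 0.315 (SD, n = 2), the BCAS mean 0.650% ± 0.237, the TBI mean 0.979% ± 0.196 and the mean after both surgeries 0.910% ± 0.159. All 6 libraries with BCAS, TBI or both lay below both control libraries, and the TBI and BCAS+TBI libraries overlapped each other. With BCAS surgery the mean share over 4 libraries was lower by 0.433 percentage points (0.780% against 1.21%; exact two-sided permutation p = 0.0571, 0.114 adjusted over both surgeries by Benjamini-Hochberg, smallest possible 0.0286). This difference was -0.251 points within set 1 and -0.615 within set 2. It was -0.362 points (exact p = 0.0857) when the kept barcodes with at least 1000 UMIs were thinned to 1000. The other 3706 kept barcodes were left out there, and 387 thinned nuclei passed the gate. With TBI surgery the difference was -0.104 points (exact p = 0.714), +0.0481 within set 1 and -0.257 within set 2, and without control 2 it turned to +0.102. A share is relative to all other nuclei, so fewer fibroblasts and more of the other nuclei cannot be told apart.

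**Figure D3:**
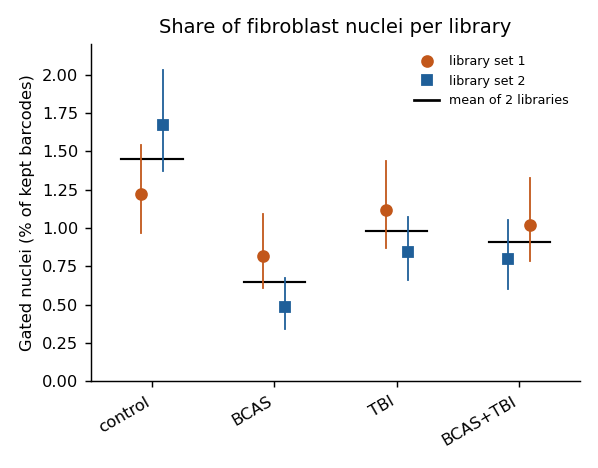
Share of gated nuclei among kept barcodes in each library, in percent, with the 95% Wilson interval as a vertical line and the mean of each group as a bar. Circles are set 1 and squares set 2; the control libraries at 1.22% and 1.67% lie highest and BCAS 2 at 0.483% lies lowest.

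Counts were summed over the fibroblast nuclei of each library, and 2830 genes outside the gate were tested in 7 contrasts. edgeR's quasi-likelihood test with Benjamini-Hochberg adjustment called 0 genes in every contrast (background 0%), with the group as the sole term. At an unadjusted p under 0.05 it found 61 genes (2.16% of those tested) between TBI and control and 108 (3.82%) between BCAS and control. The count was 73 (2.58%) between BCAS+TBI and control and 85 (3%) between BCAS+TBI and TBI. The averaged TBI effect, the mean of the TBI effects with and without BCAS, gave 121 (4.28%), the averaged BCAS effect 95 (3.36%) and the interaction 103 (3.64%). DESeq2 also called 0 genes in each contrast. With 2 libraries a side, levels that do not overlap are common: 13.4% of genes were higher and 16% lower in both TBI libraries than in both controls. The shares were 16.9% and 16.4% for BCAS beside control, and 14.2% and 14.7% for BCAS+TBI beside TBI. With the library set as a further term 1 gene passed in the averaged TBI effect (0.0353% of genes tested) and 1 in the interaction (0.0353%). Between the sets themselves 47 genes differed, 1.66% of those tested. A summed level can move through fewer nuclei of a subgroup or less RNA per nucleus, which cannot be told apart in these sums.

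Ctgf (Ccn2), which encodes a secreted matricellular protein known as a target of TEAD and of TGF-beta signalling, had the smallest p-value of all genes in the interaction of the surgeries. Its level was 331 and 168 CPM in control, 83.7 and 70.0 in BCAS, 58.4 and 80.7 in TBI, and 329 and 294 in BCAS+TBI. All 4 libraries with a single surgery lay below both controls, and both BCAS+TBI libraries lay within the control range. The interaction, the log2 change with TBI after BCAS minus that without BCAS, was 3.79 (SE 0.64, adjusted p = 0.0383) with the library set as a term and 3.80 (SE 0.67, adjusted p = 0.171) without it. For BCAS+TBI against TBI alone the log2 fold change was 2.15 (SE 0.46, adjusted p = 0.9996), for TBI against control -1.78 (SE 0.46, adjusted p = 0.9985) and for BCAS against control -1.66 (SE 0.49, adjusted p = 0.9969). With the library set as a term the interaction lost the threshold without control 1 (adjusted p = 0.163) and without TBI 1 (0.165), and without the set it passed without control 2 (0.0153) and without BCAS+TBI 1 (0.0351).

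Ctgf counts came from 4 to 23 nuclei of a library. At least 1 UMI was found in 14 of 70 and 23 of 99 control nuclei, 5 of 45 and 5 of 33 BCAS nuclei, 4 of 60 and 5 of 64 TBI nuclei, and 15 of 48 and 16 of 56 BCAS+TBI nuclei. Single nuclei held up to 10 of 27 UMIs in BCAS+TBI 1 and 8 of 35 in control 1. By subgroup its level was 168, 530, 61 and 44 CPM in subgroups 1 to 4. Subgroup 2 held 23 of 35 Ctgf UMIs in control 1, 9 of 34 in control 2, 16 of 27 in BCAS+TBI 1 and 4 of 27 in BCAS+TBI 2. Nuclei of subgroup 2 numbered 11 and 15 in control, 7 and 2 in BCAS, 7 and 10 in TBI, and 12 and 6 in BCAS+TBI. The part of these numbers in the interaction was not tested. In the other kept barcodes Ctgf stood at 3.86 to 9.38 CPM, highest in BCAS 1, so the order of the groups there was another. The gene spans chr10:24595442-24598683 on the plus strand (GRCm38).

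Cyr61 (Ccn1), a matricellular relative of Ctgf, had few counts. It gave 11 and 4 UMIs in control, 0 and 0 in BCAS, 6 and 1 in TBI, and 8 and 14 in BCAS+TBI. All 11 UMIs of control 1 lay in 1 nucleus, while the 22 of BCAS+TBI were spread over 4 and 9 nuclei. Against a floor of 3 UMIs over the BCAS group the BCAS+TBI group was 6.04-fold higher, a value that leaves out the counting error and spread of the BCAS+TBI libraries. BCAS+TBI against BCAS was not among the contrasts tested. The gene had no adjusted p under 0.05 in any contrast that was. Immediate early genes otherwise gave no group result: of 24 listed, Cyr61 alone passed the filter on low counts, and Fosb, Egr2, Atf3 and Myc had 0 UMIs.

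Asic2, a proton-gated sodium channel best known from neurons, was lower with TBI surgery. Its level was 501 and 203 CPM in control, 642 and 252 in BCAS, 109 and 143 in TBI, and 85.4 and 87.1 in BCAS+TBI. All 4 libraries with TBI lay below all 4 without it. In the averaged TBI effect the log2 fold change was -1.83 (SE 0.30, adjusted p = 0.0314) with the library set as a term and -1.88 (SE 0.40, adjusted p = 0.521) without it. Single nuclei carried much of this: 1 nucleus held 29 of 53 UMIs in control 1 and 1 held 25 of 46 in BCAS 1, while no nucleus held more than 4 in the TBI and BCAS+TBI libraries. The other barcodes held more Asic2 than the gated nuclei (995 to 1637 CPM), and 190 of its 202 UMIs lay in subgroup 1. With the stricter gate, which asks for 3 genes and 5 UMIs, the change was -0.99 with the library set as a term (adjusted p = 0.709). With that term the call was also lost without control 1, TBI 1 or BCAS+TBI 2 (adjusted p = 0.0723, 0.185 and 0.0874).

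Among the other genes with separate levels for TBI surgery (1.1% of tested genes were higher and 1.98% lower without overlap), none passed the threshold in either fit. Pbx3, a homeobox factor, stood at 312 and 391 CPM in control, 321 and 308 in BCAS, 676 and 529 in TBI, and 549 and 610 in BCAS+TBI. Its log2 fold change was 0.84 (SE 0.22, adjusted p = 0.652). Nuclei with a UMI numbered 17 of 70 and 38 of 99 in control, 14 of 45 and 15 of 33 in BCAS, 31 of 60 and 30 of 64 in TBI, and 20 of 48 and 28 of 56 in BCAS+TBI, so these shares overlapped between libraries with and without TBI. Epha3, an ephrin receptor, stood at 407 and 262 CPM in control, 391 and 280 in BCAS, 117 and 117 in TBI, and 244 and 174 in BCAS+TBI. Its log2 fold change was -1.07 (SE 0.27, adjusted p = 0.652). Slc23a2, a vitamin C carrier, had 0.97 (SE 0.27), Itch, a ubiquitin ligase, 0.78 (SE 0.24), and Gpcpd1, which cleaves glycerophosphocholine, -0.87 (SE 0.24). Of 192 Slc23a2 UMIs, 101 lay in the 30 nuclei of subgroup 4, whose part in the change was not tested. Ddx39b, Tspan5, Kcnd3 and Gria2 had log2 fold changes of 1.35, 0.69, -1.44 and -0.94 with adjusted p of at least 0.652. Kcnd3 and Gria2 were lower in the gated nuclei than in the other barcodes, at ratios of 0.499 and 0.147.

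Slc47a1, the organic cation extruder of subgroup 4, was at 250 and 242 CPM in TBI, 56.8 and 79.2 in control, 27.9 and 14.0 in BCAS, and 48.8 and 152 in BCAS+TBI. Both TBI libraries lay above the other 6. For TBI against control the log2 fold change was 1.82 (SE 0.46, adjusted p = 0.9985). Of its 100 UMIs, 94 lay in the 30 nuclei of subgroup 4, and 1 to 5 nuclei of a library held a UMI, with 11 of 30 UMIs in 1 nucleus of TBI 1 and 14 of 27 in 1 nucleus of TBI 2.

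**Figure D4:**
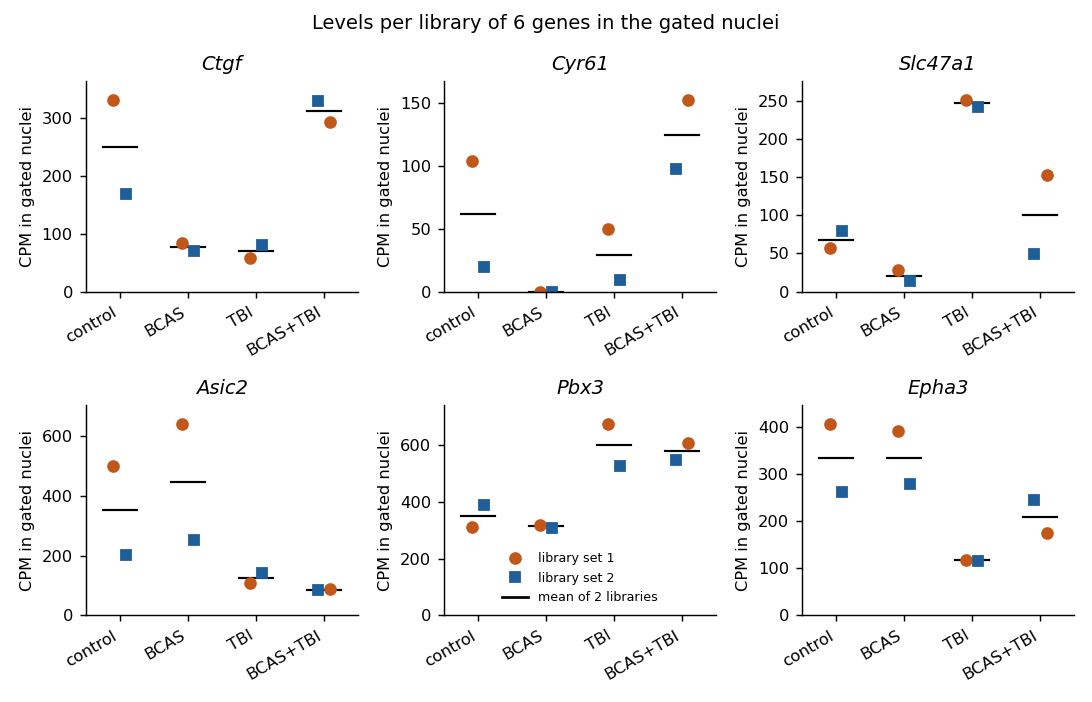
Level of 6 genes in the gated nuclei of each library, in CPM, with the mean of each group as a bar; circles are library set 1 and squares set 2. Ctgf is lower in BCAS and TBI alone than in control and in BCAS+TBI, Asic2 is lower in the 4 libraries with TBI (85.4 to 143 CPM) than in the 4 without, and Slc47a1 is highest in TBI.

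The averaged BCAS effect gave 0 genes past the threshold in both fits (1.1% of tested genes were higher and 1.1% lower without overlap), with a smallest adjusted p of 0.996 and 0.878. Aff1, a transcription elongation factor subunit, stood at 123 and 238 CPM in control, 321 and 336 in BCAS, 159 and 143 in TBI, and 293 and 261 in BCAS+TBI, with all 4 BCAS libraries above the other 4 (log2 fold change 0.83, SE 0.25, adjusted p = 0.996). Csad, an enzyme of taurine synthesis, ran the other way, at 123 and 109, 69.8 and 28.0, 159 and 143, and 36.6 and 65.3 CPM in the same order (log2 fold change -1.37, SE 0.41). Wwox, Senp2 and Cep112 had log2 fold changes of 0.58, 1.05 and 0.86, and Hnrnpd, Sacm1l and Wdr37 of -1.42, -0.81 and -0.86, all with adjusted p of 0.996. Pdgfra, a growth factor receptor and fibroblast marker outside the gate, was at 274 and 416 CPM in control, 153 and 126 in BCAS, 326 and 314 in TBI, and 403 and 261 in BCAS+TBI. Its log2 fold change for BCAS against control was -1.33 (SE 0.37, adjusted p = 0.9969).

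In BCAS+TBI against TBI alone, the genes next to Ctgf were Mrvi1 and Zhx3. Mrvi1, a regulator of calcium release, stood at 293 and 240 CPM in BCAS+TBI, 75.1 and 117 in TBI, 335 and 350 in BCAS, and 218 and 272 in control. Its log2 fold change was 1.46 (SE 0.37, adjusted p = 0.9996), and Zhx3, a transcriptional repressor, had 2.02 (SE 0.56). Nek7, a kinase of the inflammasome, was at 73.2 and 32.7 CPM in BCAS+TBI, 167 and 188 in TBI, and 97.7 and 84.0 in BCAS, with a control mean of 87.3 ± 16.5 (SD, n = 2; log2 fold change -1.75, SE 0.50). Tmem30a, Cacnb2 and Lrrc4c had -1.43, -1.60 and -1.38, and Plekhh2 had 1.00. Cacnb2 and Lrrc4c were lower in the gated nuclei than in the other barcodes, at ratios of 0.296 and 0.134. Tnr, a tenascin of oligodendrocyte precursors, had 0 UMIs in both BCAS+TBI libraries and 35.9 to 158 CPM in the other 6, and the summed precursor markers, of which it is 1, were lowest in the same 2 libraries; their part in the result was not tested. Adjusted p was 0.9996 for each of these genes, and TBI libraries are shared with the other contrasts.

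Collagens and interstitial matrix genes gave no call. Of 54 listed, 53 had a UMI and 25 were tested, with 0 past the threshold in any contrast. In the averaged TBI effect 20 of the 25 had a log2 fold change over 0, with a median of 0.26 beside -0.01 over all genes tested, where 49.3% were over 0. The single contrasts ran otherwise: between TBI and control 10 of 25 were over 0 (49.9% of all genes tested) with a median of -0.06, and between BCAS and control 7 of 25 (50.5% of all) with a median of -0.47. In the interaction 20 of 25 were over 0 with a median of 0.58, beside 50.9% and 0.01 over all genes tested. Sparc, a collagen-binding matrix protein, stood at 274 and 297 CPM in control, 209 and 154 in BCAS, 267 and 368 in TBI, and 354 and 490 in BCAS+TBI (log2 fold change for TBI 0.70, SE 0.25, adjusted p = 0.977). Ogn (osteoglycin) was at 208 and 163, 83.7 and 70.0, 125 and 80.7, and 171 and 185 CPM in the same order, with both BCAS libraries below both controls. Adamts2, which trims procollagen, was at 189 and 193, 140 and 196, 91.8 and 188, and 73.2 and 32.7 CPM. Col1a1 was at 255 and 168, 251 and 140, 309 and 251, and 452 and 468 CPM. It is a gate gene that helped to choose the nuclei, so its level is described only and carries no comparison of the groups.

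Basement membrane genes gave no call either. Of 26 listed, 12 were tested and 0 passed. Their median was -0.06 in the averaged TBI effect and 0.13 in the averaged BCAS effect, where 10 of 12 were over 0 beside 49.4% of all genes tested. Col4a6 had the smallest p for BCAS, at 208 and 238 CPM in control, 293 and 322 in BCAS, 58.4 and 233 in TBI, and 342 and 207 in BCAS+TBI (log2 fold change 0.68, SE 0.32, adjusted p = 0.996). Lama1 ran from 459 to 1245 CPM without separating the groups.

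In the list of TGF-beta signalling and scar-forming genes 9 of 35 were tested. Apart from the Ctgf interaction none passed in either fit. The median was 0.32 in the averaged TBI effect and 0.74 for the interaction, unchanged with Cyr61 at its floor, beside -0.01 and 0.01 over all genes. Between TBI and control 3 of the 9 were over 0 with a median of -0.12, and between BCAS and control 3 of 9 with a median of -0.33. Tagln, Spp1 and Cnn2, which scar fibroblasts are known to carry, had 32, 44 and 45 UMIs in all 8 libraries together and did not pass the filter on low counts. Tgfbr3 was held by 67.8% of gated nuclei and stood between 544 and 798 CPM in every library.

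Transporters, retinoid enzymes and secreted signals showed 0 calls. Of the 37 carriers 25 were tested, with medians of -0.06 for TBI and -0.06 for BCAS. Slc7a11, the cystine carrier, was at 1873 and 1589 CPM in control, 2957 and 3079 in BCAS, 2421 and 2663 in TBI, and 3820 and 1623 in BCAS+TBI. Of 24 retinoid and prostaglandin genes 5 were tested, with medians of 0.19 for TBI and -0.26 for BCAS. Ptgds, prostaglandin D synthase and the most abundant of them, followed the library set: it was at 11899 to 21623 CPM in set 1 and 7896 to 10530 in set 2, and 33.6% of other barcodes held a UMI of it. Of 40 BMP, IGF and WNT genes 16 were tested, with medians of -0.03 and -0.04. Igfbp5, an IGF-binding protein, had all 4 TBI libraries (171 to 215 CPM) above the other 4 (83.7 to 153 CPM), with a log2 fold change of 0.73 (SE 0.28, adjusted p = 0.985), and its level in subgroup 4 was 972 CPM beside 56 to 210 elsewhere.

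Chemokine, complement and innate immune genes mostly had too few counts to be tested. Of 47 listed genes 35 had a UMI, 33 were higher than in the other barcodes and 12 were more than 10-fold higher. The 12 genes with 0 UMIs included Ccl7, Ccl11, Cxcl1, Il6, Lcn2 and C3. Ccl2 had 3 UMIs, all in TBI 1 and in subgroup 2, where 1.43% of the 70 nuclei held a UMI. The 7 tested had a median of 0.16 for TBI, with none past the threshold. C4b was at 37.8 and 84.2 CPM in control, 140 and 182 in BCAS, 125 and 134 in TBI, and 122 and 98.0 in BCAS+TBI. All 6 libraries with BCAS, TBI or both lay above both controls (log2 fold change for BCAS against control 1.27, SE 0.46, adjusted p = 0.9969). It had few counts: of 93 UMIs in all, 87 lay in subgroup 1, whose part in these levels was not tested.

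Mesenchymal transcription factors had no gene at an unadjusted p under 0.05 in the averaged TBI or BCAS effect. Of 51 listed, 25 were tested, with medians of 0.05 for TBI and -0.01 for BCAS and 0 calls. Eya2 stood between 529 and 670 CPM in all 8 libraries, Zic4 between 252 and 599 and Foxd1 between 112 and 317. Of 25 arachnoid and dural genes 11 were tested, with medians of 0.19 and 0.10 and 0 calls, and apart from Slc47a1 the smallest p for TBI was that of Mgp, an inhibitor of calcification (log2 fold change 0.87, SE 0.39, adjusted p = 0.985).

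**Figure D5:**
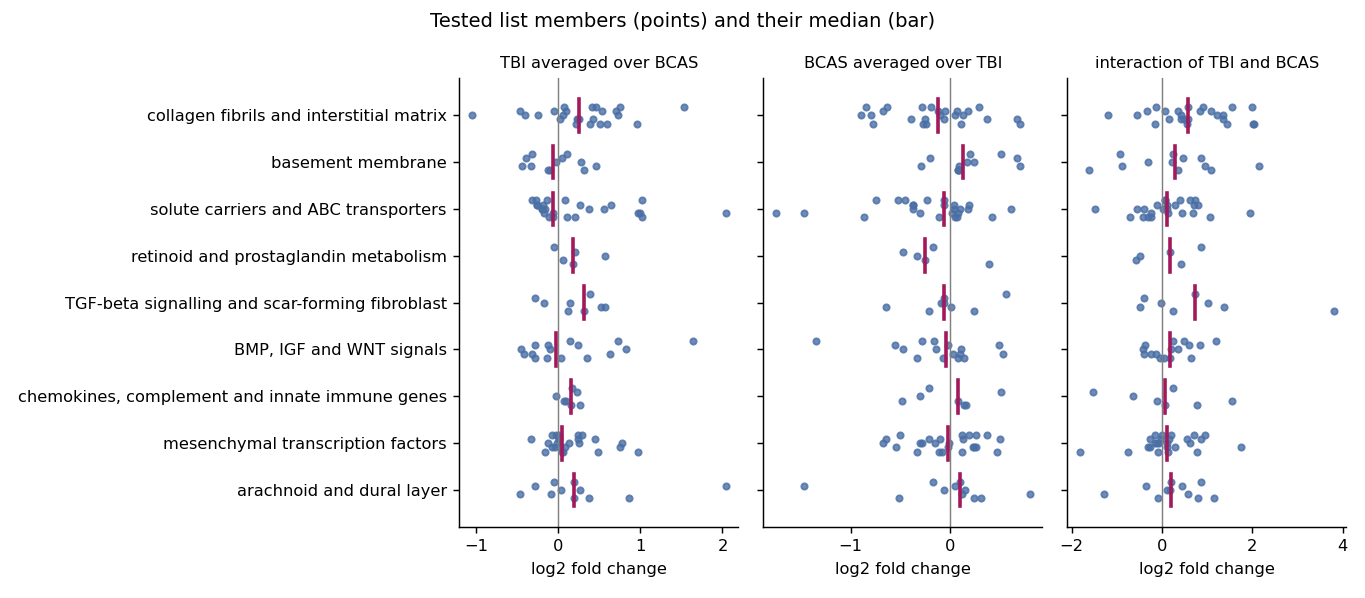
Log2 fold change of the tested members of 9 gene lists (points) with the median of each list (bar), in panels for the averaged TBI effect, the averaged BCAS effect and the interaction. Most points lie near 0; the collagen list has medians of 0.26, -0.12 and 0.58, and Cyr61, whose BCAS libraries are both at 0, is not drawn but counts in the median.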

How the data were processed

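Each library's deposited matrix holds raw UMI counts per gene and barcode, not normalized by the authors, and per the file headers Cell Ranger 7.0.0 made it. The submitters' processing notes name GRCm38, mm10 and Seurat; the annotation release is not given in the sources used here. A barcode was kept when it reached 500 UMIs and 300 genes and had no more than 5% of its UMIs in mitochondrial genes. The members and gene lists were chosen with earlier results of these data known.

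No doublets were removed from the main set beyond the exclusion genes. Scrublet (scanpy 1.11.5, expected rate 0.06) scored doublets, and leaving out the highest 6% of scores was an alternative. Counts of the gated nuclei were summed per library and fitted over all 8 libraries with edgeR 4.0.16 in R 4.3.3 (TMM scaling, the two-sided quasi-likelihood test, filterByExpr at a count of 10, and Benjamini-Hochberg adjustment over 2830 genes with a threshold of 0.05). Gate and mitochondrial genes stayed in the totals and out of the tests. Log2 fold changes are edgeR's. The test was checked on simulated data. DESeq2 1.42.0 was an alternative.

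Shares were compared by exact permutation of libraries (scipy 1.17.1), with Wilson intervals at the 95% level that cover counting error only. Subgroups came from the Leiden method (igraph 0.11.9, resolution 0.3) on a graph of 15 neighbours built from 1000 variable genes in 10 principal components. Genes named are those with the 5 smallest p-values in each direction with levels that do not overlap (3 in the other contrasts), up to 6 members of each list by ratio and 3 by p-value, the 30 leading genes, gate genes and markers. Names ending in Rik or made of Gm and digits are left out. Genes named outside this rule (Slc7a11, Igfbp2, Tgfbr3 and some genes of the subgroups, 0-count genes and ranges) were chosen after their values were seen, as were the promoter motifs. Positions are from GENCODE M21 on GRCm38. Some genes that this rule names are not reported here.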

Additional observations from a re-analysis of the deposited data

Results flagged for a closer look

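For Ctgf the effect of TBI with BCAS surgery and that without it differed in a test of the difference itself, in the fit with the library set as a term only. The interaction there was 3.79 on the log2 scale (edgeR adjusted p = 0.0383), with a log2 fold change of -1.75 for TBI against control (adjusted p = 0.530) in the same fit. It missed the threshold without control 1 (adjusted p = 0.163) and without TBI 1 (0.165). With the group as the sole term it was 3.80 with an adjusted p of 0.171.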

How the results depend on the processing

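The fit with the replicate block, the titles' replicate number, called 0 genes in every contrast, as did DESeq2. Deviations of same-numbered libraries from their group mean correlated from -0.27 to 0.21 over 12 pairs, and those of the same set from 0.14 to 0.27. The 2 libraries of a group deviate by equal and opposite amounts, so each value occurs in more than 1 pair. Among control, BCAS and TBI, where number and set coincide, same-numbered libraries correlated from 0.14 to 0.21. All same-numbered pairs below 0 involved BCAS+TBI, whose numbers run opposite to the sets. Whether the numbers pair the libraries therefore rests on this 1 group.

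Counts of genes past the threshold, 0 with the group as the sole term, moved as follows. With no filter on low counts there was 1 gene between TBI and control, 3 between BCAS and control, 5 between BCAS+TBI and control, 2 in the averaged TBI effect and 6 in the interaction. The library set gave 1 in the averaged TBI effect and 1 in the interaction, also when nuclei beyond 3 times the median depth were left out (1 and 1). Testing only genes at least as high as in other barcodes gave 1 in the interaction. The next settings were chosen after seeing the data: leaving out nuclei over the precursor limit, with the set, gave 1 between BCAS+TBI and control, 5 in the averaged TBI effect and 1 in the interaction, and the stricter gate with the set gave 1 between TBI and control and 1 in the interaction.

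Leaving out 1 library at a time gave 0 to 1 genes between TBI and control, 0 to 2 between BCAS and control, 0 to 1 between BCAS+TBI and control, 0 to 13 in the averaged TBI effect, 0 to 2 in the averaged BCAS effect and 0 to 5 in the interaction, the 13 and the 5 without BCAS+TBI 1. With the set as a term as well, also chosen after seeing the data, the ranges in that order were 0 to 1, 0 to 27, 0 to 5, 0 to 39, 0 to 8 and 0 to 41, and 0 to 7 between BCAS+TBI and TBI. The 27 arose without BCAS 2, which also gave 22 genes in the averaged TBI effect, 20 in the interaction and 4 between BCAS+TBI and control (4 without BCAS 1), and the 39 and 41 arose without BCAS+TBI 1; the cause was not tested.

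For the share of fibroblast nuclei the difference with TBI surgery ran from -0.293 to 0.102 points when 1 library was left out, the highest without control 2, and the difference with BCAS surgery from -0.557 to -0.281. Over 36 settings the 35 genes named from the contrasts by p-value gave 1436 fold changes for 42 pairs of gene and contrast, none of which turned direction. These genes were picked from the same data for small p-values, and some also for levels that do not overlap. A turn of direction was therefore unlikely from the start. Genes named from the lists alone, such as Sparc, Igfbp5, Mgp, Col4a6 and C4b, were not run under these settings. With 33 to 99 nuclei a library and 2 libraries a group, single nuclei carry much of some levels (Asic2, Slc47a1), and genes at a few UMIs could not be compared at this depth.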
